A study of Caenorhabditis elegans with 8 samples.

Results

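The 10 genes described here code for the worm TORC1 kinase complex, the small GTPases that switch it on, their anchor on the lysosome and 1 kinase that TORC1 acts on. They were taken by WormBase symbol (daf-15, let-363, mlst-8, raga-1, ragc-1, rheb-1, lmtr-2, lmtr-3, lmtr-5 and rsks-1) from 46739 genes in the count files. All 10 were found by that rule, and all 10 passed the filter on low counts, which left 12021 genes for testing. The rule uses symbols, not measured values, though the symbols were proposed with earlier results of these data known.

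Whole Caenorhabditis elegans treated with 5-Ph-IAA (4 libraries of total RNA) were set against worms that received ethanol (4 libraries). All 8 libraries came from 1 genotype, described as carrying an auxin-inducible degron on DAF-15 in neurons. In this system an auxin analog, here 5-Ph-IAA, makes a plant F-box protein bind the tagged protein and send it to the proteasome, and ethanol serves as the control. Worms on OP50 bacteria were treated from the L4 larval stage for 24 h and collected on day 1 of adulthood. The sources used here do not give the promoter that drives the plant protein, the dose or how the strain was made. Worms without the degron were not analysed here, so an effect of 5-Ph-IAA itself and one of DAF-15 loss cannot be told apart.

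TORC1 (target of rapamycin complex 1) promotes protein synthesis and growth and holds back autophagy when amino acids are plentiful. Its kinase is LET-363, the worm TOR, and its substrate-binding scaffold is DAF-15, the worm Raptor. A heterodimer of Rag GTPases (RAGA-1 with RAGC-1), tethered to the lysosome in mammals by the Ragulator complex, brings TORC1 to the lysosome, where the GTPase Rheb activates the kinase. In worms, loss of daf-15 or let-363 arrests larvae, and lowering the pathway's activity in adults lengthens life.

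The reads counted in genes ranged from 7745664 to 9709094 in the 5-Ph-IAA libraries and from 7354710 to 10893322 in the ethanol libraries. Each of the 10 genes held between 219 and 1987 counts in a library. Neuronal markers, 14 of 14 tested, summed to between 434 and 459 CPM with 5-Ph-IAA and between 451 and 475 CPM with ethanol, where CPM stands for counts scaled to a library of 1e6 on TMM-adjusted sizes. Germline markers (13 of 13 tested) summed to 9768 to 10231 CPM with 5-Ph-IAA and 9233 to 10385 CPM with ethanol, and none of the 7 sperm markers passed the filter. Markers of epidermis (3 of 6 tested, median log2 fold change 0.37) summed to 1411 to 1863 CPM with 5-Ph-IAA and 1749 to 1856 CPM with ethanol, and those of pharynx (3 of 4 tested, median 0.26) to 52.4 to 79.5 CPM with 5-Ph-IAA and 39.2 to 64.3 CPM with ethanol. In epidermis the lowest and the highest sum were both in 5-Ph-IAA libraries, so the median of its 3 genes does not describe the sum. Medians were -0.06 for neurons, 0.03 for germline, 0.04 for 8 intestinal markers and 0.02 for 6 markers of body wall muscle. Intestinal markers summed to 44080 to 49400 CPM with 5-Ph-IAA and 38955 to 51208 CPM with ethanol. Muscle markers summed to 1892 to 2859 CPM with 5-Ph-IAA and 1962 to 2745 CPM with ethanol. No marker passed an edgeR adjusted p of 0.05. In the fit with the replicate number as a block 1 did, the intestinal protease gene cpr-1, at 25.4 ± 2.37 CPM with 5-Ph-IAA and 19.2 ± 5.10 CPM with ethanol (SD, n = 4 each; block log2 0.42, SE 0.108, edgeR adjusted p = 0.0396, against 0.999 without the block). The part of these markers in the results was not tested. In RNA of whole worms, fewer cells of a type and less RNA per cell cannot be told apart.

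None of the 10 genes changed past the threshold (adjusted p under 0.05, edgeR's quasi-likelihood test), whereas 12 of the 12021 tested genes, or 0.0998%, did. With the replicate number as a block the count of members stayed at 0, against 88 genes or 0.732% overall. DESeq2 and limma-voom also called 0 of the 10, against 0.241% and 0.0749% of all genes. At an unadjusted p under 0.05 in edgeR there were 0 members without the block (4.41% of all genes) and 1, lmtr-5, with it (6.91% of all genes). Fold changes are given as log2 of 5-Ph-IAA over ethanol, with a standard error (SE) and a 95% interval from the fitted model. Over the members they lay between -0.14 and 0.04, with a median of -0.04 against -0.0009 over all tested genes. The intervals of all 10 together ran from 0.816-fold to 1.12-fold of the ethanol level. They bound levels in whole worms. Changes limited to neurons, where the degron is described, were not measured apart from other tissues.

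Of the 10 log2 fold changes, 8 were below 0, and 50.3% of all tested genes were below 0. This direction was the same in all 8 alternatives that kept every library, which covered test, block, scaling and filter. Those alternatives refit the same libraries, so their agreement is no independent support. The sign of the fold change held for 5 genes (let-363, raga-1, lmtr-2, lmtr-3 and lmtr-5) in all 12 fits that left out a library or a numbered pair. Its size did not hold there: let-363 ranged from -0.07 (without ethanol replicate 2) to -0.02 (without pair 4), lmtr-2 from -0.16 (without pair 4) to -0.009 (without pair 2), lmtr-3 from -0.08 (without 5-Ph-IAA replicate 1) to -0.007 (without ethanol replicate 1), raga-1 from -0.12 (without 5-Ph-IAA replicate 1) to -0.05 (without 5-Ph-IAA replicate 4) and lmtr-5 from -0.18 (without pair 4) to -0.11 (without 5-Ph-IAA replicate 3). The fits without a pair carried the block. Genes measured in the same libraries are not independent of each other, so the count of 8 is a description.

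**Figure D1:**
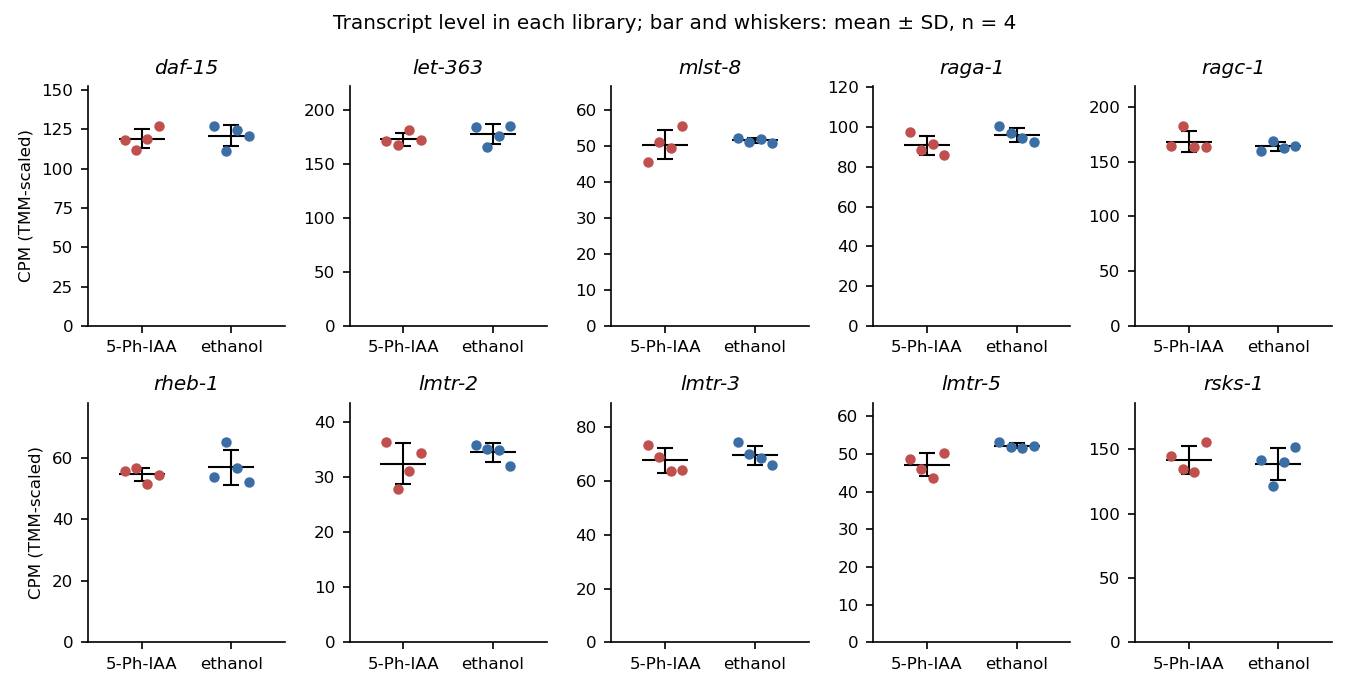
Level of each gene in CPM (y axis, from 0) in the 4 libraries of 5-Ph-IAA (left, red) and the 4 of ethanol (right, blue), with the mean and SD. The groups overlap for 9 of the 10 genes, and for lmtr-5 the 5-Ph-IAA libraries, at 43.6 to 50.4 CPM, lie below the ethanol libraries, at 51.6 to 53.0 CPM.

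None of the genes of the kinase complex itself changed past the threshold. The scaffold gene daf-15 (WBGene00000911, chromosome IV: 9386208 to 9394979, plus strand, 20 exon blocks), whose protein carries the degron, stood at 118.5, 112, 119.1 and 127 CPM in 5-Ph-IAA replicates 1 to 4, against 127, 111, 125 and 121 CPM in ethanol replicates 1 to 4. The highest and the lowest libraries of both groups were within 1 CPM of each other, and the groups overlapped. The fold change on the log2 scale was -0.02 (SE 0.057, interval -0.14 to 0.10, edgeR adjusted p = 0.999). For RNA of whole worms, the interval leaves room for a level between 0.908 and 1.07 times that of ethanol. The level in neurons alone was not measured. The degron acts on the protein, so the transcript is no check of the treatment. Its sign turned to 0.007 without 5-Ph-IAA replicate 2 and to 0.002 without ethanol replicate 1.

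The kinase gene let-363 (WBGene00002583, chromosome I: 5245743 to 5263424, plus strand, 32 exon blocks) codes for the catalytic subunit of both TORC1 and TORC2. It stood at 171, 167, 181 and 172 CPM in 5-Ph-IAA replicates 1 to 4, against 184, 165, 176 and 185 CPM in ethanol replicates 1 to 4. The lowest value and the pair of highest values all belonged to ethanol libraries. A log2 fold change of -0.04 (SE 0.052, interval -0.15 to 0.07, edgeR adjusted p = 0.999) was within the spread of the libraries.

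The third subunit gene, mlst-8 (WBGene00015697, chromosome I: 4735251 to 4738102, minus strand), codes for the worm LST8, which binds the TOR kinase domain in both complexes. It stood at 45.5, 50.98, 49.4 and 55.5 CPM in 5-Ph-IAA replicates 1 to 4, against 52.1, 51.1, 52.0 and 50.8 CPM in ethanol replicates 1 to 4. The ethanol libraries all lay inside the range of the 5-Ph-IAA libraries. Their coefficient of variation (CV) was 1.23%, below the 4.77% that counting error alone gives at this depth, and that of the 5-Ph-IAA libraries was 8.20%. A log2 fold change of -0.03 (SE 0.075, interval -0.19 to 0.12, edgeR adjusted p = 0.999) turned to 0.02 without 5-Ph-IAA replicate 1. Exons of mlst-8 share 26 bases with ugt-25 on the opposite strand, which held 2175 counts over the 8 libraries against 3511 for mlst-8. Those of daf-15 share 107 bases with col-121, which held 6 counts over the 8 libraries. The sources used here do not name the strand setting of the counting, so reads in these overlaps cannot be assigned with certainty.

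Neither Rag GTPase gene passed the test. RAGA-1 is the worm counterpart of mammalian RagA and RagB, whose GTP-bound form recruits TORC1. Its gene (WBGene00006414, chromosome II: 11301359 to 11302776, plus strand) stood at 97.3, 88.4, 91.7 and 86.0 CPM in 5-Ph-IAA replicates 1 to 4, against 101, 97.2, 94.5 and 92.3 CPM in ethanol replicates 1 to 4. The 5-Ph-IAA library was the lower one in 4 of 4 numbered pairs, yet the groups overlapped, and a difference of -0.08 on the log2 scale was found (SE 0.059, interval -0.20 to 0.04, edgeR adjusted p = 0.999).

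Its partner ragc-1 (WBGene00012497, chromosome IV: 11603613 to 11604933, minus strand), the counterpart of RagC and RagD, stood at 164.0, 182, 163 and 163 CPM in 5-Ph-IAA replicates 1 to 4, against 159.7, 169, 162 and 165 CPM in ethanol replicates 1 to 4. Replicate 2 was the highest library of its group under both treatments. The log2 fold change of 0.04 (SE 0.052, interval -0.07 to 0.14, edgeR adjusted p = 0.999) rested on 5-Ph-IAA replicate 2 and was -0.003 without it.

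The GTPase gene rheb-1 (WBGene00010038, chromosome III: 9454163 to 9456030, minus strand) codes for the direct activator of the kinase. It stood at 55.7, 56.6, 51.5 and 54.5 CPM in 5-Ph-IAA replicates 1 to 4, against 53.9, 65.0, 56.6 and 52.2 CPM in ethanol replicates 1 to 4. Here ethanol replicate 2 alone lay above all the others. The log2 fold change of -0.06 (SE 0.077, interval -0.22 to 0.10, edgeR adjusted p = 0.999) was 0.01 without that library.

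The lmtr genes code for Ragulator subunits, which in mammals hold the Rag dimer on the lysosomal membrane and act in its nucleotide exchange. Of these, lmtr-5 (WBGene00020101, chromosome III: 3183677 to 3185241, plus strand) had the largest difference among the 10 genes. It stood at 48.8, 46.0, 43.6 and 50.4 CPM in 5-Ph-IAA replicates 1 to 4, against 53.0, 51.8, 51.6 and 52.1 CPM in ethanol replicates 1 to 4. Every 5-Ph-IAA library was below every ethanol library. Of the 10 genes 1, lmtr-5, thus had groups that did not overlap. The same held for 2.65% of all tested genes in either direction and for 1.11% with 5-Ph-IAA lower. Its difference on the log2 scale was -0.14 (SE 0.073, interval -0.29 to 0.01, unadjusted p = 0.066 and adjusted p = 0.999 in edgeR), a level 0.907 times that of ethanol. With the replicate block the edgeR interval ended just below 0 (-0.28 to -0.0006, unadjusted p = 0.049 and adjusted p = 0.719 in edgeR). DESeq2 with the same block, a fit added after seeing the data, gave -0.14 with a wider SE of 0.098 (DESeq2 unadjusted p = 0.145). The ethanol libraries of lmtr-5 had a CV of 1.23%, again below the counting error of 4.82%, and those of 5-Ph-IAA a CV of 6.29%. Leaving out a library or pair gave log2 fold changes between -0.18 and -0.11.

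For lmtr-2 (WBGene00022402, chromosome V: 8010491 to 8011106, minus strand), the least counted of the 10, levels were 36.3, 27.8, 31.2 and 34.4 CPM in 5-Ph-IAA replicates 1 to 4, against 36.0, 35.2, 34.9 and 32.1 CPM in ethanol replicates 1 to 4. The highest and the lowest value were both in 5-Ph-IAA libraries. Its log2 fold change of -0.08 (SE 0.095, interval -0.28 to 0.11, edgeR adjusted p = 0.999) had the widest interval of the group.

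For lmtr-3 (WBGene00007390, chromosome V: 11124186 to 11125056, plus strand) they were 73.5, 69.2, 63.96 and 64.3 CPM in 5-Ph-IAA replicates 1 to 4, against 74.4, 69.9, 68.5 and 66.0 CPM in ethanol replicates 1 to 4. The 5-Ph-IAA library was the lower one in 4 of 4 numbered pairs, with groups that overlapped. The difference was -0.04 on the log2 scale (SE 0.068, interval -0.18 to 0.10, edgeR adjusted p = 0.999). Together with raga-1 and lmtr-5 this made 3 of 10 genes that were lower in all 4 pairs, against 7.02% of all tested genes. None of the 3 passed the test.

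Downstream of the complex, rsks-1 (WBGene00012929, chromosome III: 11245120 to 11252281, plus strand) codes for the S6 kinase, which TORC1 phosphorylates to raise translation and whose loss lengthens worm life. It stood at 144, 135, 132 and 155 CPM in 5-Ph-IAA replicates 1 to 4, against 141, 121, 140.0 and 151 CPM in ethanol replicates 1 to 4. Replicate 4 was the highest library of both groups, and 5-Ph-IAA was the higher one in 3 of 4 pairs. The log2 fold change of 0.03 (SE 0.065, interval -0.10 to 0.17, edgeR adjusted p = 0.999) was -0.03 without ethanol replicate 2 and -0.02 without 5-Ph-IAA replicate 4. Its spread between libraries was wide for its level, at the 88.7th percentile of 1539 genes with a mean CPM within 1.5-fold of its own. That of lmtr-5 was narrow, at the 10.4th percentile of 2128 such genes. Both spreads are pooled over the treatments. For lmtr-5 the CV was 1.23% with ethanol, below its counting error of 4.82%, and 6.29% with 5-Ph-IAA.

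**Figure D2:**
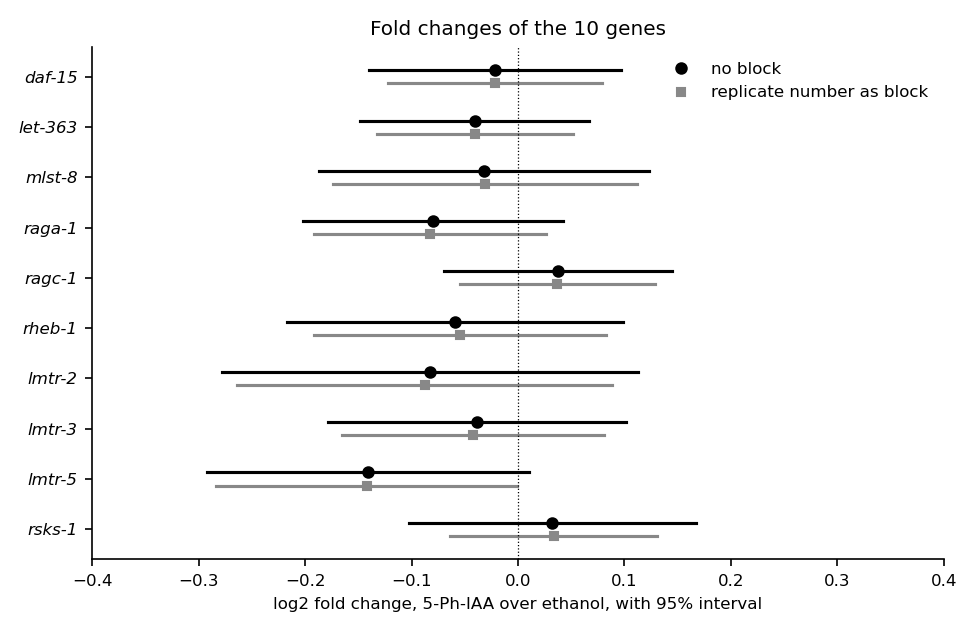
Log2 fold change of 5-Ph-IAA over ethanol (x axis) for each of the 10 genes, with the 95% interval, from edgeR without a block (black circles) and with the replicate number as a block (grey squares). All 10 black intervals contain 0, and of the grey ones only that of lmtr-5 does not, ending at -0.0006.

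Levels were then set against each other per length, as CPM per kb of annotated exon. The gene for RagC stood highest and those for the kinase and its scaffold lowest. The mean level per kb of ragc-1 was 153 ± 8.61 CPM per kb with 5-Ph-IAA and 149 ± 3.65 CPM per kb with ethanol (SD, n = 4 each). It was followed by lmtr-3 at 94.4 ± 6.29 CPM per kb with 5-Ph-IAA and 97.2 ± 4.90 CPM per kb with ethanol. Both stood clear of the genes below them in all 8 libraries.

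Next came raga-1, lmtr-2, lmtr-5, rheb-1 and rsks-1, a run in which each gene overlapped the next one over the 8 libraries. At its top raga-1 had 71.8 ± 3.88 CPM per kb with 5-Ph-IAA and 75.9 ± 2.81 CPM per kb with ethanol. At its foot rsks-1 had 46.4 ± 3.44 CPM per kb with 5-Ph-IAA and 45.4 ± 4.11 CPM per kb with ethanol. Order within this run is therefore not resolved beyond the spread for neighbours, and rheb-1 and rsks-1 swapped places between the treatments.

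The core complex genes closed the order. The level of mlst-8 was 29.6 ± 2.43 CPM per kb with 5-Ph-IAA and 30.3 ± 0.372 CPM per kb with ethanol, clear of its neighbours on both sides. Those of let-363 and daf-15 could not be told apart. For let-363 it was 20.2 ± 0.685 CPM per kb with 5-Ph-IAA and 20.8 ± 1.07 CPM per kb with ethanol, and for daf-15 it was 20.3 ± 1.05 CPM per kb with 5-Ph-IAA and 20.6 ± 1.17 CPM per kb with ethanol. From the highest to the lowest gene the range was 7.39-fold. All 10 stood above the median of 17.2 CPM per kb over 11362 tested protein-coding genes, from the 53.5th percentile for daf-15 to the 93.2nd for ragc-1.

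**Figure D3:**
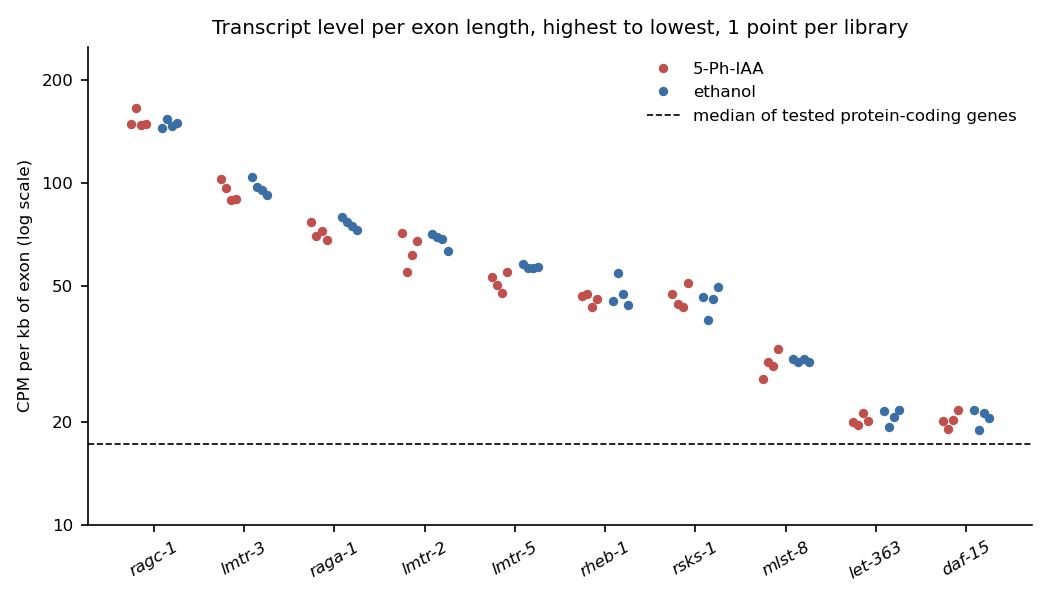
Level in CPM per kb of exon (y axis, log scale) of the 10 genes ordered by their mean over 8 libraries, with 1 point per library, 5-Ph-IAA in red left of ethanol in blue. The dashed line marks the median of tested protein-coding genes at 17.2 CPM per kb, and the points of let-363 and daf-15 cover the same range.

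Ratios between partners, taken within each library so that scaling cancels, are levels per kb over levels per kb. The scaffold and the kinase stood close to parity: the ratio of daf-15 to let-363 was 1.01, 0.972, 0.956 and 1.07 in 5-Ph-IAA replicates 1 to 4, against 1.00, 0.980, 1.03 and 0.9505 in ethanol replicates 1 to 4. The highest of the 8 was a 5-Ph-IAA library and the lowest an ethanol library. Per kb, the ratio of mlst-8 to let-363 was 1.47 ± 0.134 with 5-Ph-IAA and 1.46 ± 0.0751 with ethanol (SD, n = 4 each).

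The transcript of raga-1 was the scarcer one of the Rag pair. Its ratio to ragc-1 was 0.516, 0.421, 0.489 and 0.458 in 5-Ph-IAA replicates 1 to 4, against 0.548, 0.4999, 0.507 and 0.488 in ethanol replicates 1 to 4. The ratio was lower with 5-Ph-IAA in 4 of 4 numbered pairs, as raga-1 itself was, while the groups overlapped. No share over other gene pairs was computed for this. The lowest ratio was in 5-Ph-IAA replicate 2, where ragc-1 stood at 182 CPM against 163 to 164 CPM in the rest of its group. For rheb-1 to raga-1 it was 0.639 ± 0.0433 with 5-Ph-IAA and 0.629 ± 0.0607 with ethanol, and for rsks-1 to let-363 it was 2.30 ± 0.204 with 5-Ph-IAA and 2.18 ± 0.102 with ethanol. The groups overlapped in all 5 ratios. Ratios of reads per kb depend on the annotated lengths and describe transcripts, not protein stoichiometry.

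**Figure D4:**
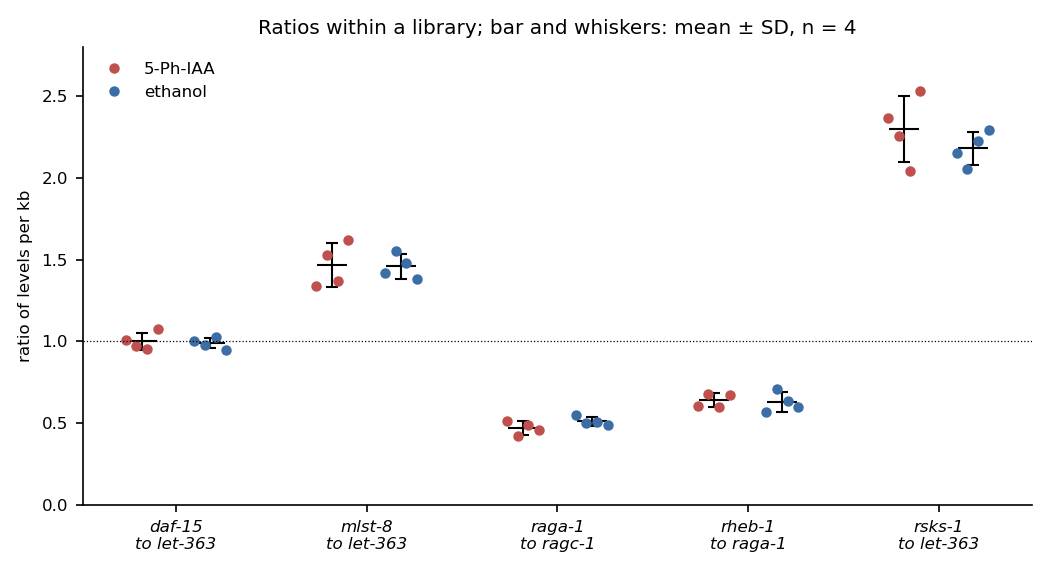
Ratio of levels per kb between partner genes (y axis, from 0) in each library, 5-Ph-IAA in red left of ethanol in blue, with mean and SD. The dotted line marks a ratio of 1, on which daf-15 to let-363 lies, and both treatments overlap in every ratio.

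Over the 8 libraries the genes whose pattern was most like that of daf-15 were nucb-1, ell-1 and cbp-1. Likeness was the root mean square difference of log2 CPM, each gene centred on its own mean, which was 0.016, 0.024 and 0.027 for these genes against a median of 0.163 over 12020 genes. Among the other members let-363 came closest to daf-15 (0.055, rank 149) and rheb-1 was farthest (0.148, rank 5374). The measure favours genes that vary little, and all genes ranked share the same libraries and depths. The 3 named genes are the smallest of 12020 differences, picked from these same data, and counting error alone was 3.11% for daf-15. Differences this small can arise by such picking, and whether these genes track daf-15 was not tested.

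Genes around the complex were then read from 7 lists, which held 75 symbols, of which 71 were found and tested. None of the 71 passed the threshold in edgeR with or without the block, where 0.732% and 0.0998% of all tested genes did. At an unadjusted p under 0.05 without the block there was 1 of the 71 (pqm-1), against 4.41% of all tested genes. Their log2 fold changes lay above 0 for 35 and below 0 for 36, with a median of -0.002.

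Inputs that report amino acids and the lysosome to TORC1 were the most even list. Its 7 tested genes, among them the GATOR1 subunit genes nprl-2 and nprl-3, the sestrin gene sesn-1 and the folliculin gene flcn-1, had log2 fold changes between -0.03 (nprl-3, SE 0.074) and 0.03 (nprl-2, SE 0.06). Of the 3 TORC2 genes, rict-1, the Rictor gene, stood at 96.8 ± 7.14 CPM with 5-Ph-IAA and 96.9 ± 6.90 CPM with ethanol (SD, n = 4 each). The kinase gene sgk-1, which codes for a target of TORC2, stood at 23.0 ± 2.91 CPM with 5-Ph-IAA and 19.95 ± 2.31 CPM with ethanol (log2 0.20, SE 0.116, edgeR adjusted p = 0.999).

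Targets in translation and in ribosomal RNA synthesis had medians near 0, at 0.009 for 12 genes and 0.01 for 9. Above 0 lay 7 of the 12 and 7 of the 9, against 49.7% of all tested genes. In the first list the log2 fold changes ran from -0.03 for ife-2, a cap-binding protein gene, to 0.19 (SE 0.197) for ife-4, another one, and rps-6, whose protein is the classical substrate of the S6 kinase, had 0.001 (SE 0.049). In the second they ran from -0.13 (SE 0.093) for mafr-1, the worm MAF1, a repressor of RNA polymerase III, to 0.09 (SE 0.076) for rpoa-1, an RNA polymerase I subunit gene.

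In the autophagy list 15 of 20 genes had log2 fold changes below 0 and 5 above, while 50.3% of all tested genes were below 0. The median was -0.06 against -0.0009 over all genes, and 0 had an unadjusted p under 0.05 in edgeR. Genes measured in the same libraries are not independent, so the count of 15 is a description. The Atg8 family gene lgg-1 stood at 407 ± 29.8 CPM with 5-Ph-IAA and 429.6 ± 32.6 CPM with ethanol (log2 -0.08, SE 0.06, edgeR adjusted p = 0.999), and unc-51, the kinase gene that mammalian TORC1 inhibits through its protein, at 29.2 ± 4.39 CPM with 5-Ph-IAA and 30.4 ± 6.44 CPM with ethanol. Both were picked with their values in view, as were sesn-1, flcn-1 and rps-6. The ends of the list were atg-10 (-0.30, SE 0.241, at 3.30 CPM with 5-Ph-IAA and 4.11 CPM with ethanol) and atg-16.2 (0.05, SE 0.104).

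Among 9 transcription factor genes placed downstream of TORC1, pqm-1, a zinc finger factor known to work opposite DAF-16, was at 25.3, 32.5, 41.5 and 32.3 CPM in 5-Ph-IAA replicates 1 to 4, against 34.03, 40.02, 48.2 and 38.3 CPM in ethanol replicates 1 to 4. Each 5-Ph-IAA library was below the ethanol library of its number, although the groups overlapped. Its log2 fold change was -0.29 (SE 0.135, unadjusted p = 0.0462 and adjusted p = 0.999 in edgeR), and with the block -0.29 (SE 0.082, edgeR adjusted p = 0.0980). At the other end nhr-62, a nuclear hormone receptor gene with low counts, had 0.34 (SE 0.253). The AMPK list, whose kinase opposes TORC1 when energy is low, ran from -0.07 (SE 0.082) for the catalytic subunit gene aak-1 to 0.13 (SE 0.276) for the gamma subunit gene aakg-3 over 11 genes.

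**Figure D5:**
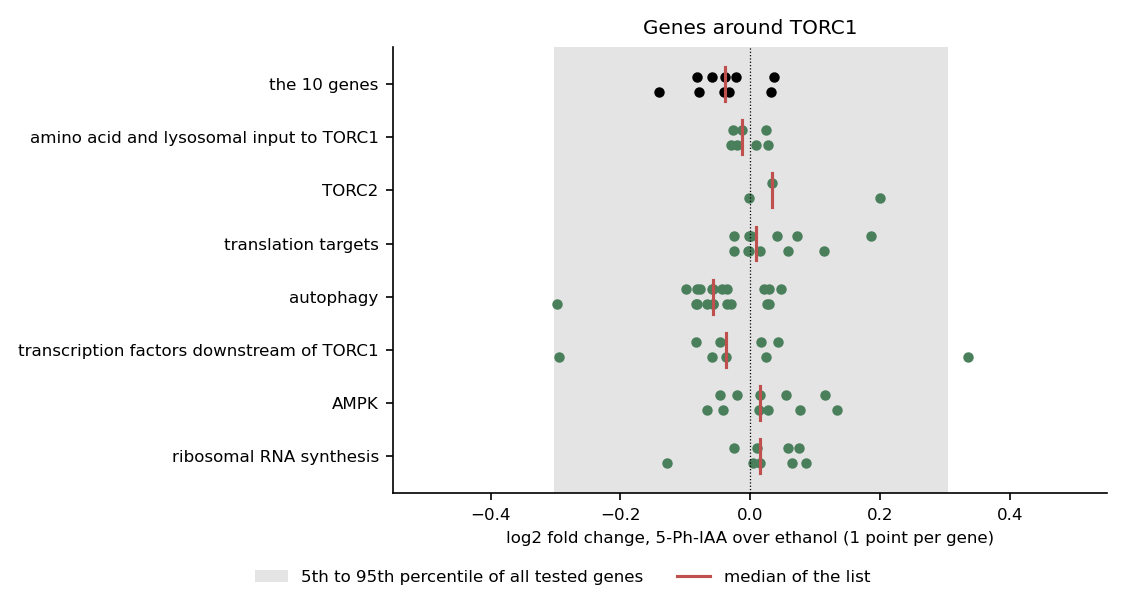
Log2 fold change of 5-Ph-IAA over ethanol (x axis), 1 point per gene, for the 10 genes (top row, black) and the 7 lists around TORC1 (green), with each median in red. The grey band spans the 5th to the 95th percentile of all 12021 tested genes, -0.30 to 0.31, and holds all 10 members and 70 of the 71 listed genes, with nhr-62 outside it.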

How the data were processed

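Whole-worm RNA was measured in 8 libraries, 4 a group. The deposited values are raw counts of reads per gene; the submitters' processing notes name FastQC 0.11.5, TopHat2, HTSeq and DESeq2 without saying what each did. The sources used here do not give build, annotation or strand setting. The 5 closing lines of each file name no gene and were left out; 47.7% to 48.1% of each file stood in the line named no feature, close to 1.01 such reads for each read in a gene in every library. Whether these reads lie on the other strand of genes was not tested. Symbols, lengths and coordinates (1-based) come from Ensembl release 115 (WBcel235), not from the annotation used for counting.

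Genes passing filterByExpr were scaled with TMM factors (0.986 to 1.02) and compared with edgeR 4.0.16 in R 4.3.3 (quasi-likelihood, robust, two-sided, Benjamini-Hochberg over 12021 genes, threshold 0.05). SE and 95% intervals come from the fitted weights and quasi-dispersion. The procedure was run on simulated counts that carried no effect of the replicate number. That run cannot show how intervals without the block behave where replicate numbers pair the libraries. The common biological CV was 7.67%. Alternatives were limma-voom 3.58.1, DESeq2 1.42.0, other scalings and filters, the replicate block and leaving out libraries. The main fit had no block, since the labels do not say what replicate numbers mark. Deviations from group means correlated at 0.100 to 0.147 between libraries of 1 number and at -0.099 to 0.010 otherwise. By a bar of 0.1 the numbers pair the libraries. Intervals and p-values printed without mention of the block ignore that pairing. The margin was narrow: with a prior count of 0.5 in place of 2 the lowest was 0.0957, under the bar. All 12 pairs of replicates differed by more than sampling noise (chi-square over its degrees of freedom 2.52 to 9.03). The labels do not say that replicates were separate cultures, and p-values then reflect only how these libraries spread, which may be technical. Levels per kb use the union of annotated exons. The members and lists were chosen with earlier results of these data known; named by rule were all 10 members and, per list, genes past the threshold and the largest change in each direction. Outside this rule lgg-1, unc-51, sesn-1, flcn-1, rps-6 and cpr-1 were named with their values seen.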

Additional observations from a re-analysis of the deposited data

Results flagged for a closer look

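Of 30 groups of 4 libraries examined (the CPM of 10 genes and 5 ratios, each under both treatments), 1 held a library far from its group. The level of ragc-1 in 5-Ph-IAA replicate 2 was 182 CPM, while the other 3 libraries of its group lay between 163 and 164 CPM, a gap of 0.956 of the group's range, which is past Dixon's 95% limit for 4 samples. Chance alone flags about 1 in 20 groups.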

How the results depend on the processing

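None of the 10 genes passed in any of the 20 alternative settings. Their log2 fold changes kept their sign in 80 of 80 values from the 8 settings that used every library, and in 110 of 120 values from fits without a library or pair. The 8 settings refit the same libraries, so their agreement is no independent support. Without 1 library daf-15 ranged from -0.059 to 0.0072, mlst-8 from -0.085 to 0.016, ragc-1 from -0.0027 to 0.053, rheb-1 from -0.101 to 0.012 and rsks-1 from -0.027 to 0.080. Without 1 pair, in fits with the replicate block, daf-15 ranged from -0.055 to 0.0053, mlst-8 from -0.090 to 0.022 and rsks-1 from -0.0037 to 0.069. The cause of these changes of sign was not tested. Over all genes 12 were called, against 88 with the replicate block, 29 with DESeq2, 24 with DESeq2 and the replicate block (added after seeing the data) and 62 with no filter. Without 1 library the count was 6 to 19, and with the replicate block it was 82, 51, 78 and 92 without pair 1, 2, 3 or 4. The block changed no call among the members. Taking the longest transcript as the length moved 1 of 30 levels and ratios, and scaling by total gene counts moved none of 20 levels. A level counted as moved unless it shifted by less than the SD of its group. The 1 moved was mlst-8 with ethanol, from 30.3 to 31.1 CPM per kb (SD 0.372). With 5-Ph-IAA mlst-8 went from 29.6 to 30.4 CPM per kb, within its wider SD of 2.43. At 219 to 359 counts for lmtr-2, counting error was 5.88%, and the CV between libraries was 11.5% with 5-Ph-IAA and 4.89% with ethanol.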
